A study of Mus musculus with 36 samples.

Results

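The places where 2 mutant forms of histone H4 were recovered from mouse embryonic stem cells were compared with each other: H4K91Q, in which lysine 91 is replaced by glutamine, and H4K91R, in which it is replaced by arginine. A region is a peak of tagged histone that the authors called in a pulldown against its own input. Regions of either mutant that overlapped a peak of the empty-vector pulldown by at least 1 bp were dropped. That left 14206 of 14314 regions for H4K91Q and 47898 of 49155 for H4K91R, 62104 regions in all out of 135634 peaks in the 4 stem cell peak lists. The wild-type list was not used in the comparison.

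The cells, labelled as mouse embryonic stem cells, stably carried a PiggyBac transgene: PiggyBAC_H4K91Q_3HA, PiggyBAC_H4K91R_3HA or, as control, PiggyBAC_Empty vector. PiggyBac is a transposon that inserts its cargo into the genome, and 3HA is a short epitope tag on the transgenic histone. The labels describe no change to the endogenous H4 genes, and H4 made from those carries no tag for the beads to hold. All 3 groups were fixed with paraformaldehyde, sonicated and pulled down with anti-HA magnetic beads. The labels do not give the promoter of the transgene, or whether a line was a clone or a pool. Peak lists hold no expression values, so the cell type was not checked against marker genes. The level of each tagged protein was not measured in these files. There was 1 library for each mutant and 1 for the empty vector. No difference below can therefore be set against a spread between replicates, and no test between mutants was made. Shares are given with 95% intervals by the exact method of Clopper and Pearson, which speak of counting error alone. A place absent from a list was not called as a peak there, which does not show that the histone was missing from it.

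Histone H4 pairs with H3, and a tetramer of the 2 forms the centre of the nucleosome. Lysine 91 lies in the folded core of H4, near the surface where the tetramer meets the H2A-H2B dimers, and it can be acetylated on newly made H4. Glutamine has no positive charge and is used as a mimic of acetyl-lysine, whereas arginine keeps the charge and cannot be acetylated.

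Many promoters lay under H4K91R regions and few under H4K91Q regions, and 6 are shown here as examples of each kind. The first 3 lay under regions of both mutants, the next pair under H4K91R alone, and the last under H4K91Q alone. Each run is the 250 bp upstream of a RefSeq start in GRCm38.p6, the same assembly as the mm10 of the peak lists, 5′ to 3′ on the strand of the gene. Capitals mark CG dinucleotides, the sites of DNA methylation in mammals. Nap1l5, an imprinted gene related to nucleosome assembly proteins, is on the minus strand at chr6:58907127-58907376. Angptl6, which encodes a secreted angiopoietin-like protein, is on the minus strand at chr9:20879711-20879960. Peg3, an imprinted zinc finger gene, is on the minus strand at chr7:6730420-6730669. Il3ra, the interleukin 3 receptor alpha chain, is on the plus strand at chr14:14346245-14346494. Gng10, a G protein gamma subunit, is on the plus strand at chr4:59034906-59035155. Krtap28-13, a hair keratin-associated protein, is on the plus strand at chr1:83060680-83060929.
Nap1l5: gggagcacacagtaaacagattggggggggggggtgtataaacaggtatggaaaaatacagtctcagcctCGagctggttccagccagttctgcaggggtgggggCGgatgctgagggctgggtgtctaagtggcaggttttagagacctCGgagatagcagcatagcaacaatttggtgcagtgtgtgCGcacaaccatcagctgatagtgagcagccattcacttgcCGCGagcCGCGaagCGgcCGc
Angptl6: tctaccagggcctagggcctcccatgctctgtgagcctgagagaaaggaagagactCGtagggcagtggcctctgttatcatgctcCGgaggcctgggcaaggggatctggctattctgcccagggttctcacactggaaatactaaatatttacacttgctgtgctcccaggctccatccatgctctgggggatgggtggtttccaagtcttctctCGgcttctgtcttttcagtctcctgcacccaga
Peg3: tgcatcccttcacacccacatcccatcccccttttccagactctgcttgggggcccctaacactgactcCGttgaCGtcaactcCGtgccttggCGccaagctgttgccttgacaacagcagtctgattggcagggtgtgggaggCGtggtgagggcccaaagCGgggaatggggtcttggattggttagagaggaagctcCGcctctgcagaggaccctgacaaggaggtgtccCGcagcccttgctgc
Il3ra: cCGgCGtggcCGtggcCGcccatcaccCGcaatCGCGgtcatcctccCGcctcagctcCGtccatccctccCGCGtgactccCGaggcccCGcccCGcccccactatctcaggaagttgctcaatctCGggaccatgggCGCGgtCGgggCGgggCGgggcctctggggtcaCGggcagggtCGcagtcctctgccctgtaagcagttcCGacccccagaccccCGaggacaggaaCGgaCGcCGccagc
Gng10: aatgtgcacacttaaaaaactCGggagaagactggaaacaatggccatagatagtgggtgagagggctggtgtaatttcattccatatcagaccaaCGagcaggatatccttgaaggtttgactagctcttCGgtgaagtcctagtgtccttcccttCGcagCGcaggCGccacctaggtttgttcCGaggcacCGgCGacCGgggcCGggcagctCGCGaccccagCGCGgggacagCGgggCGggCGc
Krtap28-13: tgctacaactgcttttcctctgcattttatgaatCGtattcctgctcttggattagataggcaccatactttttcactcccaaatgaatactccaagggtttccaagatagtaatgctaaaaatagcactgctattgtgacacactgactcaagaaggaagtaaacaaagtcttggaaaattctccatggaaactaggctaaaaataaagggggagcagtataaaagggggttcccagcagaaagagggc

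The printed stretch of Il3ra holds 27 CG dinucleotides and that of Gng10 holds 18. Nap1l5 has 10, Peg3 has 8, Angptl6 has 3 and Krtap28-13 has 1. The regions over the shared promoters had these values of the authors' fold enrichment over input. Nap1l5 stood at 13.6 in the H4K91Q list and 23.1 in the H4K91R list, Peg3 at 11.5 and 16.1, and Angptl6 at 11.9 and 5.27. Over Il3ra the H4K91R region had a fold of 30.6, and over Gng10 it had 13.8. The H4K91Q region at the Krtap28-13 promoter had a fold of 5.37. It began at position 83060901 of chromosome 1, near the downstream end of the printed run, so most of that run lay outside it. It ran on into the gene, where it met an H4K91R region of fold 12.6. Folds of the 2 lists come from different libraries and inputs. They are given side by side to describe each list and measure no change between mutants.

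H4K91R was spread over far more places than H4K91Q, and most of the additional places lay in and around genes. The kept lists differed 3.37 times in number of regions and 2.65 times in covered sequence, 16.04 Mb for H4K91R against 6.06 Mb for H4K91Q. H4K91Q regions were somewhat wider, with a median of 317 bp against 270 bp. Their median folds were close, 5.13 and 5.28, but the highest fold was 27.5 for H4K91Q and 57.8 for H4K91R. The empty-vector list of 3007 peaks removed 0.755% of H4K91Q peaks and 2.56% of H4K91R peaks. Read depth is not in these files, and its part in the difference in list length was not tested.

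Of the H4K91Q regions, 53.5% (52.7 to 54.3, 7602 of 14206) overlapped an H4K91R region, and of the H4K91R regions 16.04% (15.7 to 16.4, 7683 of 47898) overlapped an H4K91Q region. By sequence, 2.74 Mb were common to both, which is 45.2% of the H4K91Q bases and 17.1% of the H4K91R bases. Most meetings were simple: 6908 H4K91Q regions met a single H4K91R region, while 694 met several. Weaker regions were met less often in both lists, apart from a small rise in the weakest part of H4K91Q. Within H4K91R it was 41.7% in the quintile of highest fold (the strongest 20% of the list), 14.6% in the next, 9.80% in the middle, then 7.34% and 6.79%. Within H4K91Q it went from 78.1% in the highest quintile to 40.7% in the fourth and 43.6% in the lowest. Width went the same way. Of the regions of 1 kb or wider, 697 of 759 in the H4K91Q list (91.8%) and 416 of 630 in the H4K91R list (66.0%) met the other mutant.

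The tops of the 2 lists were nearly common property. Among the 100 regions of highest fold, 98 of H4K91Q and 99 of H4K91R overlapped some region of the other list, and among the first 1000 the numbers were 902 and 930. Meeting the other list's own strongest regions was much less frequent. When each list was shortened to its 500 regions of highest −log10 q, 38.8% (34.5 to 43.2) of H4K91Q met one of the 500 of H4K91R, although 96.2% met the whole H4K91R list. At 2000 each the share was 41.8% (39.6 to 44.0), and at 14206 each it was 35.8% (35.1 to 36.6). At that length 33.8% of H4K91R met H4K91Q. None of the 6 lengths tried gave more than 41.8%.

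**Figure D1:**
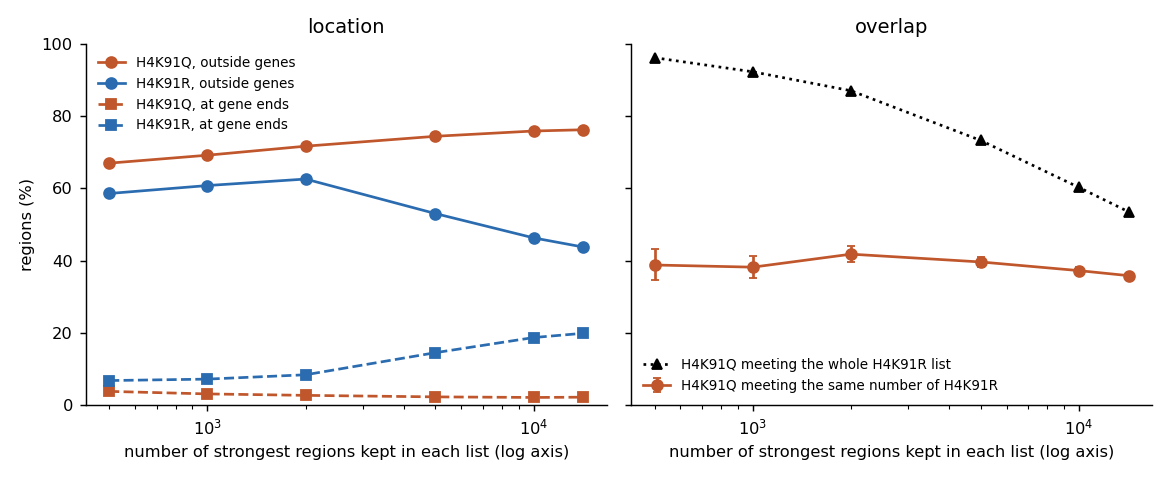
Lists of equal length made of the regions of highest −log10 q, from 500 to 14206 on a log axis. Left, percent of regions outside protein-coding genes (circles, solid) and within 1 kb of a gene end (squares, dashed), with H4K91R moving from 58.6% to 43.8% outside genes while H4K91Q moves from 67.0% to 76.2%. Right, percent of H4K91Q regions that overlap as many H4K91R regions (circles, bars are exact 95% intervals) or the whole H4K91R list (triangles).

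The summits of overlapping regions were compared. Overlap of regions this narrow by itself limits how far apart the summits can lie, so the distances are given as a description. In the 5754 pairs in which each region met only its partner, the summits lay a median of 71 bp apart (quartiles 28 and 141). In 77.5% of pairs (76.4 to 78.6) the summits were within 150 bp, about the length of DNA on a nucleosome core, and in 39.7% they were within 50 bp. Median widths in the pairs were 369 bp for H4K91Q and 354 bp for H4K91R, and the H4K91Q region was the wider of the 2 in 52.8%. Strength matched loosely. Across pairs, Spearman's rho was 0.27 for fold and 0.34 for width, as a description of 5754 places measured in the same 2 libraries. Of the pairs in which H4K91Q was in its top quintile, 69.0% had an H4K91R partner in the top quintile of its own list, against 42.6% of those in which H4K91Q was in its lowest quintile. Over all 5754 pairs, 2993 H4K91R partners were in that top quintile, since stronger regions were met more often.

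Regions without an overlap differed in how far they lay from the other mutant. The 6604 unshared H4K91Q regions lay a median of 2194.5 bp from the nearest H4K91R region. Of these, 39.2% (38.1 to 40.4) were within 1 kb and 85.6% within 50 kb. The 40215 unshared H4K91R regions lay a median of 112334 bp from the nearest H4K91Q region, and 4.98% (4.77 to 5.20) were within 1 kb. Counting overlaps too, 71.8% of all H4K91Q regions had H4K91R within 1 kb, and 20.2% of all H4K91R regions had H4K91Q that near. A longer list leaves shorter distances to it, so the 2 directions are not on an equal footing.

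**Figure D2:**
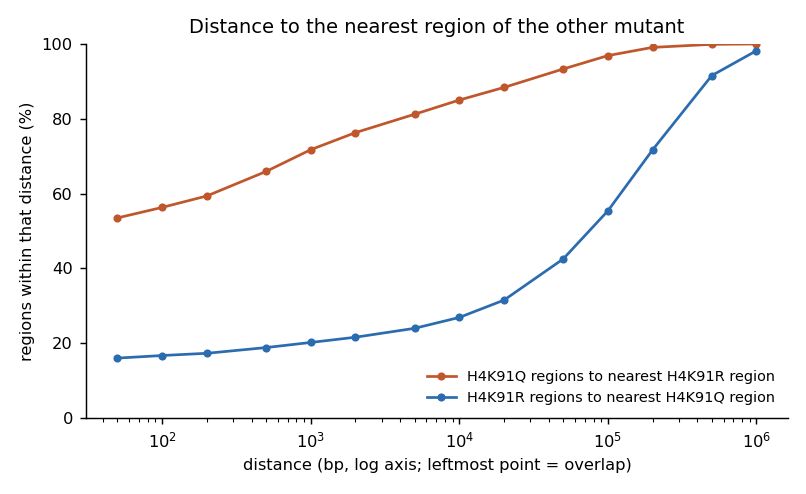
Percent of regions (vertical axis) with a region of the other mutant within a given distance in bp (log axis; the leftmost point counts overlaps only). The H4K91Q curve starts at 53.5% and reaches 93.3% at 50000 bp; the H4K91R curve starts at 16.04% and is at 42.5% there.

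Location relative to protein-coding genes divided the lists further. A region was placed by its midpoint, as within 1 kb of either end of a gene, elsewhere in a gene, or outside genes. Of the 312 H4K91Q regions at gene ends, 75% (69.8 to 79.7) overlapped H4K91R, a larger share than the 59.7% in genes and the 51.2% outside. For H4K91R the order was the opposite. At gene ends 219 of 9678 regions, or 2.26% (1.98 to 2.58), overlapped H4K91Q, against 9.35% elsewhere in genes and 30.8% (30.2 to 31.5) outside. With H4K91R shortened to the length of H4K91Q these shares were 6.12% at gene ends and 53.9% outside.

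The same order was seen within quintiles of fold. It depends in part on the counts in each place. At gene ends there were 312 H4K91Q and 9678 H4K91R regions, and outside genes 10832 and 18116. With so few H4K91Q regions at gene ends, most H4K91R regions there could not meet one, whatever their fold. The quintiles therefore describe the lists and add no separate support. In the top fold quintile of H4K91R, 8.87% (7.55 to 10.3) of gene-end regions, 32.1% of those elsewhere in genes and 60.9% (59.4 to 62.3) of those outside genes met H4K91Q. In its lowest quintile the same shares were 0.560%, 3.16% and 15.5%. In the top fold quintile of H4K91Q they were 93.0%, 83.5% and 76.1%. In each of these groups the 95% intervals at gene ends and outside genes did not overlap, which does not remove the dependence on counts.

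**Figure D3:**
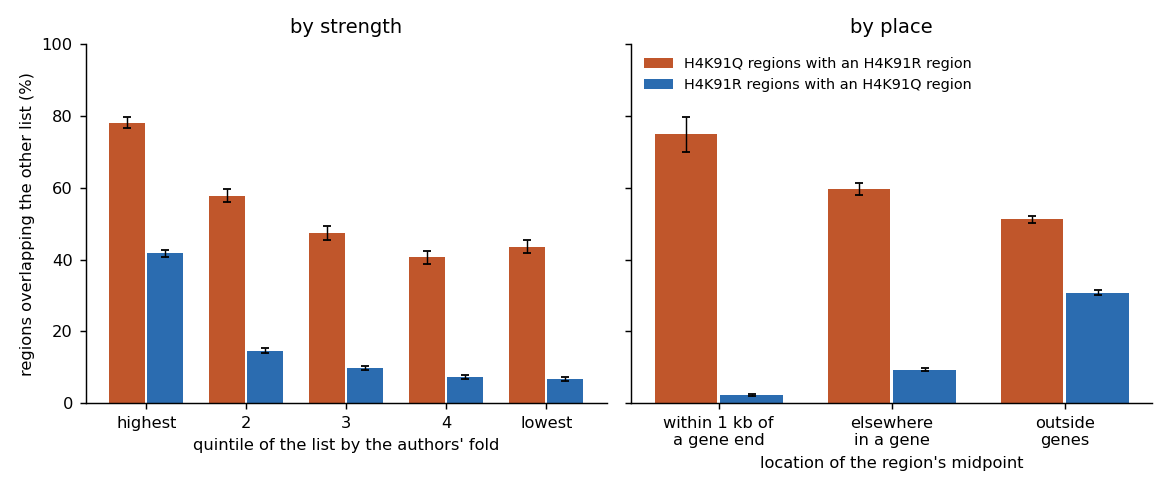
Percent of regions that overlap a region of the other mutant (bars from 0, with exact 95% intervals). Left, by quintile of each list ordered by the authors' fold; right, by location of the midpoint. H4K91R bars run from 2.26% at gene ends to 30.8% outside genes, and H4K91Q bars from 75% to 51.2%.

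The shared regions of the 2 lists are overlapping places, so a like make-up follows from how they were defined. Of the shared H4K91Q and H4K91R regions, 72.9% and 72.7% lay outside genes, and 3.08% and 2.85% lay at gene ends. The unshared regions of the 2 lists differed. Of unshared H4K91Q regions 80.1% lay outside genes and 1.18% at gene ends, whereas of unshared H4K91R regions 31.2% lay outside and 23.5% (23.1 to 23.9) at gene ends. In equal lists, the share of H4K91R regions at gene ends went from 6.8% of the first 500 to 19.9% of 14206, and that of H4K91Q stayed between 2.12% and 3.8%. Of the 6 lengths tried, the gap at gene ends was narrowest in the strongest 500. Over the whole H4K91R list the share at gene ends did not go on growing: it was 21.6% at a −log10 q of at least 5 and 20.2% of all regions.

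Gene starts carried most of the gene-end signal of H4K91R. RefSeq's promoter table gives the strand of 17492 of the 21887 protein-coding genes (79.9%), so starts can be told from the other end only for these. Of all H4K91R regions, 13.1% (12.8 to 13.4) were within 1 kb of a start and 3.66% (3.49 to 3.83) within 1 kb of the other end. For H4K91Q the values were 0.922% (0.772 to 1.09) and 1.06% (0.894 to 1.24), with overlapping intervals. Shared H4K91R regions, which overlap H4K91Q by definition, had 1.34% at starts and 1.31% at the other end, while unshared ones had 15.3% and 4.11%. The median distance to a start was 63.1 kb for H4K91Q and 26.5 kb for H4K91R.

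Counted over genes, 277 of 21887 (1.27%) had an H4K91Q region within 1 kb of an end and 8286 (37.9%) had an H4K91R region. Both mutants were at 245 genes (1.12%), H4K91Q without H4K91R at 32 (0.146%) and H4K91R without H4K91Q at 8041 (36.7%). H4K91R marked 5425 genes (24.8%) when both lists were held to a −log10 q of at least 5, and 3072 (14%) when it was shortened to 14206 regions. In the full lists 88.4% (84.1 to 92.0) of the genes of H4K91Q were also genes of H4K91R, and 2.96% of the genes of H4K91R were also genes of H4K91Q. At starts alone, H4K91Q was at 111 of 17492 genes (0.635%), H4K91R at 5620 (32.1%) and both at 103 (0.589%), while 8 (0.0457%) had H4K91Q without H4K91R and 31.5% the reverse. With the gene body included, H4K91Q was at 1589 genes (7.26%), H4K91R at 11567 (52.8%) and H4K91Q without H4K91R at 107 (0.489%), both at 6.77% and H4K91R without H4K91Q at 46.1%.

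Among the 10 genes of highest H4K91Q fold that both mutants marked, 9 had a region of each that overlapped. Elob, a subunit of elongin, and Srrm2, a splicing factor of nuclear speckles, share a region of 24.6 in H4K91Q and 39.8 in H4K91R, with summits 18 bp apart. It spans 11115 bp in H4K91Q and 5702 bp in H4K91R, at chr17:23814553-23825667 and chr17:23818361-23824062. Hcn2, a pacemaker ion channel, and Polrmt, the mitochondrial RNA polymerase, share the strongest H4K91R region of all, with a fold of 57.8 beside 23.5 in H4K91Q. Ezr, which ties membranes to actin, and Sytl3 share a region of 16.9 and 46.9. Slc51a, a subunit of a bile acid transporter, stood at 14.3 and 22.0, and Ogfod2 at 12.3 and 17.3. These are 10 genes but 7 H4K91Q regions.

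Rif1, a regulator of replication timing and of DNA break repair, was the exception among them. Its H4K91Q region, with a fold of 14.3 at chr2:52127095-52127764, is the strongest in that list with no H4K91R overlap. It lies 326 bp outside the gene, ranks 42 of 14206, and the nearest H4K91R region is 1084 bp away. H4K91R marked Rif1 at its opposite end, with a fold of 4.23. The next H4K91Q regions without overlap were in Tnfrsf22, a decoy receptor gene, at chr7:143636476-143637323 with a fold of 12.6, and in Tenm4, an adhesion gene, at chr7:96316734-96317672 with 11.2. A region of 12.1 at chr9:80035355-80035791, outside genes, lay 80 bp from H4K91R, and one of 11.0 at chr7:12012262-12014539 lay 440 bp from it. The Tnfrsf22 region was 11916 bp from H4K91R and the Tenm4 region 6862 bp.

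The strongest H4K91R regions with no H4K91Q overlap included some far from any H4K91Q. The region in Col4a6, a basement membrane collagen gene, at chrX:141276390-141276824 had a fold of 21.7 and lay 1952189 bp from the nearest H4K91Q region. One outside genes at chr1:143110614-143111201 had a fold of 20.1 and lay 207151 bp away, and one at chr6:73519880-73520128 had 18.9 and lay 34215 bp away. The other 2 were close to H4K91Q: Il3ra (chr14:14345603-14349672, fold 30.6) by 1706 bp and Tln1, the talin gene (chr4:43539173-43541593, fold 21.3), by 1312 bp.

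The genes marked by H4K91Q and not by H4K91R were few and their folds low, and the name of the class is strict only at the gene end. Cdk15, a cyclin-dependent kinase, had the highest fold of them, 10.5, and its region met an H4K91R region, of fold 20.6, that lay outside the window. For the next 9 the H4K91Q folds ran from 7.98 to 5.07. Enpp6, a choline phosphodiesterase, was at 7.98 with the nearest H4K91R region 60275 bp away, and the olfactory receptor genes Olfr113 and Olfr1341 were at 6.40 and 6.19 with distances of 15088 and 31825 bp. Ces2h, C1s2, Slc35f6, Il1f9 and Zfp808 were between 6.22 and 5.07 and from 2208 to 24761 bp away. Snapc3, a subunit of the complex that starts small nuclear RNA genes, was at 5.49 and 766 bp away.

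In the genes marked by H4K91R and not by H4K91Q 3 of the 10 of highest H4K91R fold had a region that met H4K91Q all the same. Csf2ra, the alpha chain of the GM-CSF receptor, was at 31.1 in H4K91R, and that region met an H4K91Q region of 7.26 lying beyond the 1 kb window. Clcn4, a chloride and proton exchanger, was at 23.0 with an H4K91Q region of 4.41 inside the same place. Both overlapped a promoter of Clcn4 in RefSeq's promoter table, so H4K91Q is absent only from the windows at its outermost ends. Disp1, which releases Hedgehog proteins, was at 13.6 beside 6.34. The other 7 had no H4K91Q overlap and were 58082 to 117271 bp from the nearest one. Otx1, a homeobox gene of the forebrain, was at 14.2. Idh1, isocitrate dehydrogenase, and Pikfyve, a lipid kinase, share a region of 13.3. Lhcgr, the luteinising hormone receptor, Galnt10, Hspa4l and the chemokine receptor gene Xcr1 were between 12.8 and 12.5.

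Imprinted genes, which are expressed mainly from a single parental copy under control regions that carry parental DNA methylation, were of the 22 lists the one with the largest share held by H4K91Q. At gene ends H4K91Q was at 10 of 26 members (38.5%, 20.2 to 59.4), where it was at 1.27% of all protein-coding genes. H4K91R was at 20 (76.9%), where it was at 37.9% of all genes, and each of the 10 was among the 20. With gene bodies included, H4K91Q was at 18 of 26 and H4K91R at 25, beside 7.26% and 52.8% of all genes. At 17 of the 18 the strongest H4K91Q region overlapped H4K91R, and 15 of the 18 were in the top fold quintile of their list. The H4K91R regions they met were in the top quintile in all 17 genes. These counts describe genes that share regions in part, and the list was drawn up with results of these data known.

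The strongest regions of these genes are given with the fold in H4K91Q and then in H4K91R. Nap1l5, whose promoter is printed above, had the highest H4K91Q fold, at 13.6 and 23.1, and Impact was at 13.5 and 21.3. Grb10, an adaptor of growth factor receptors, was at 12.9 and 37.7 in a region of 1967 bp at chr11:12025304-12027270, with summits 16 bp apart. Peg3 and its neighbour Usp29 share a region of 3130 bp at 11.5 and 16.1. Igf2r, the receptor that clears IGF2, and the antisense RNA Airn share a region at chr17:12741186-12743377 of 9.60 and 21.1, with summits 4 bp apart. Gnas, which encodes a G protein alpha subunit, was at 9.02 and 28.2 over 3107 bp at chr2:174294533-174297639. Inpp5f was at 9.17 and 24.5, Plagl1, a zinc finger regulator of growth, at 8.60 and 26.4, Nnat at 8.29 and 18.5, and Mest at 8.24 and 16.4. Sgce and Peg10 share a region at 7.64 and 11.9, and Snrpn, a splicing protein gene, was at 7.61 and 12.9.

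The other members were at lower H4K91Q folds. Zrsr1 was at 7.56 and 8.03 in the region it met, beside another H4K91R region of higher fold, and Mcts2 at 5.84 and 12.9. Rtl1 had an H4K91Q region of 6.36 that stopped 71 bp short of H4K91R. Igf2, a fetal growth factor, was at 4.92 and 8.89. Cdkn1c, an inhibitor of the cell cycle, had H4K91R at its end, with a fold of 11.7, and its nearest H4K91Q region was 163261 bp away. Of 7 long non-coding RNA genes of these domains, Kcnq1ot1, Peg13, Airn, Meg3 and H19 had both mutants in the gene or within 1 kb. The region of Airn is the one given above with Igf2r. Of all 12727 long non-coding RNA genes, counted without flanks, H4K91Q lay in 4.52%, H4K91R in 20.5%, and both in 449 genes. Rian and Mirg had H4K91R alone, with folds of 4.22 and 4.23. Kcnq1ot1 was at 5.28 in H4K91Q and 16.1 in H4K91R, and Peg13 at 7.34 and 18.9.

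Germ-cell genes were next. H4K91Q was at the ends of 4 of 26 (15.4%, 4.36 to 34.9) and H4K91R at 19 (73.1%), beside 1.27% and 37.9% of all genes. Shortened to 14206 regions, H4K91R was at 12 of the 26, beside 14% of all genes. All 4 had overlapping regions: Dpep3 at 7.68 and 13.3, Dazl, an RNA-binding protein of germ cells, at 4.95 and 12.5, Zp3, an egg coat protein, at 3.77 and 12.3, and Mael, which acts in piRNA silencing, at 3.59 and 15.8. The H4K91Q folds of Zp3 and Mael are in the lowest quintile of that list, and the H4K91R folds of all 4 are in the highest 2% of theirs. Ddx4, a germ-cell helicase, and Sohlh2 had H4K91R alone, at 10.7 and 10.02.

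Genes of heterochromatin and KAP1 silencing were held by H4K91Q at 3 of 24 ends (12.5%, 2.66 to 32.4), beside 1.27% of all genes, and by H4K91R at 8 (33.3%), near the 37.9% of all genes. Besides Rif1 these were Atf7ip, a partner of the H3K9 methyltransferase SETDB1, at 8.55 and 13.3, and Lrif1 at 6.61 and 8.97. At starts alone H4K91Q was at 1 of 23 (4.35%, 0.110 to 21.9), an interval that holds the 0.635% of all genes with a known strand. Ehmt2, an H3K9 methyltransferase, Dnmt1, which copies DNA methylation, and Uhrf1, which brings it to DNA, had H4K91R alone, at 7.56, 6.61 and 5.80.

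Genes of developmental regulators, of pluripotency and of Polycomb were marked by H4K91R in larger shares than the 37.9% of all genes, and H4K91Q was at 0 or 1 gene of each list. H4K91R was at 32 of 36 neural progenitor genes (88.9%) and 33 of 39 Hox genes (84.6%), which became 24 and 20 when it was shortened to 14206 regions, where 14% of all genes were marked. In full it was at 26 of 36 mesoderm and endoderm genes (72.2%), 20 of 32 pluripotency genes (62.5%) and 18 of 30 genes of Polycomb subunits (60.0%). In the same order, H4K91Q was at 1, 0, 0, 1 and 1, beside 1.27% of all genes, and the neural progenitor gene dropped out at a −log10 q of at least 5, where 1.01% of all genes were marked. Those 3 were Pou3f2, a neural POU factor, at 4.11 beside 9.81 in H4K91R, Tet2, which oxidises methylcytosine, at 4.37 beside 9.61, and Ring1, a subunit of Polycomb repressive complex 1, at 10.4 beside 11.4. With 0 of 39 Hox genes the interval for H4K91Q reaches 9.03%, so a share at the 1.27% of all genes was not detectable as a difference in a list of this size.

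Examples with H4K91R alone were Neurog1 (9.43) and Emx1 (9.32) among neural genes and Hoxc13 (9.79) and Hoxb2 (8.63) among Hox genes. Lin28a (8.50) and Utf1 (7.20), both genes of the pluripotent state, and Cbx8 (10.4) and Bmi1 (8.24), both of Polycomb repressive complex 1, were others. The nearest H4K91Q region lay 459714 bp from Neurog1, 469017 bp from Emx1, 683628 bp from Hoxc13, 1398470 bp from Hoxb2 and 213611 bp from Bmi1. Hoxd10 differed, with H4K91R at 9.09 and H4K91Q 337 bp away. That H4K91Q region, of fold 4.98 in Hoxd11, was the only one in or within 1 kb of a Hox gene. For H4K91Q this was 1 of 39 genes (2.56%, 0.0649 to 13.5), an interval that holds the 7.26% of all genes. H4K91R was in or within 1 kb of 36 of the 39 (92.3%), beside 52.8% of all genes.

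Neuronal genes of the differentiated state had H4K91R at 20 of 36 ends (55.6%) and H4K91Q at 1, beside 37.9% and 1.27% of all genes. That gene was Nefm, a neurofilament subunit, at 9.91 and 10.7, the H4K91Q region running over 1688 bp and the summits lying 1103 bp apart. Its neighbour Nefl had H4K91R alone, at 7.35. In their bodies H4K91Q also lay in Stmn2 (6.68), Syt1 (6.58) and Stx1a (5.77), each meeting H4K91R. The 40 long neuronal adhesion and synaptic genes, with a median length of 1221 kb, had H4K91Q at no end and H4K91R at 17 (42.5%). Their intervals, up to 8.81% and from 27.0% to 59.1%, hold the 1.27% and 37.9% of all genes. Over the whole gene H4K91Q was in 25 and H4K91R in 38, beside 7.26% and 52.8% of all genes, counts that grow with gene length.

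Histone chaperone and H4 acetyltransferase genes, whose products handle new H4, had H4K91R at 15 of 27 ends (55.6%, 35.3 to 74.5). That interval holds the 37.9% of all genes. They had no H4K91Q at an end or in the body, beside 1.27% and 7.26% of all genes. A count of 0 of 27 allows up to 12.8%, so neither differed detectably. Kat5, a lysine acetyltransferase, was at 7.37, and Chaf1a, the large subunit of CAF-1, at 6.75. Ribosomal protein genes had H4K91R at 17 of 87 (19.5%), below the 37.9% of all genes, and no H4K91Q. For H4K91Q, 0 of 87 allows up to 4.15%, which holds the 1.27% of all genes. The shortened H4K91R list was at 2 of the 87, beside 14% of all genes. Housekeeping genes had H4K91R at 11 of 30 (36.7%), near the 37.9% of all genes. They had H4K91Q at Actg1 alone (3.33%, 0.0844 to 17.2), a cytoplasmic actin, with 7.56 beside 25.2.

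Receptor genes of smell and pheromone sensing were rarely marked by H4K91R, beside the 37.9% of all genes, while for H4K91Q the 1.27% of all genes lay within the intervals of both families. Of 1110 olfactory receptor genes H4K91Q was at 7 (0.631%, 0.254 to 1.295) and H4K91R at 19 (1.71%), and 2 had both. Of 353 vomeronasal receptor genes it was 4 (1.13%, 0.310 to 2.88) and 6 (1.70%), and each of the 4 had both. At starts alone, H4K91Q was at 1 of 944 olfactory receptor genes (0.106%, 0.00268 to 0.589). That interval lies below the 0.635% of all genes with a known strand. Vomeronasal receptor genes had H4K91Q at 2 of 321 starts (0.623%), near that share. The region of Vmn2r29 at its gene end was at 7.59 and 21.8. Among 394 Zfp zinc finger genes H4K91Q was at 13 (3.30%, 1.77 to 5.58) and H4K91R at 138 (35.0%, near the share of all genes), with 10 in common, and Zfp787 was at 6.44 and 23.7. At starts alone H4K91Q was at 2 of 329 Zfp genes (0.608%), near the 0.635% of all genes with a known strand. Keratin genes had H4K91Q at 5 of 105 (4.76%, 1.56 to 10.8) and H4K91R at 33 (31.4%, 22.7 to 41.2), and all 5 had both. These were hair keratin-associated genes such as Krtap4-9, at 4.95 and 10.4. Clustered protocadherin genes had H4K91R at 13 of 57 (22.8%, 12.7 to 35.8), below the 37.9% of all genes. They had H4K91Q at no end, which allows up to 6.27%. The remaining lists, given as H4K91Q and then H4K91R, were 16 genes of the 2-cell stage with 1 and 2, 64 replication-dependent histone genes with 0 and 4, and 78 mitochondrial ribosomal protein genes with 1 and 25. In 149 serpin, cytochrome P450 and UGT genes they were 4 and 9. For H4K91R the intervals of the 2-cell (1.55% to 38.3%) and mitochondrial (21.9% to 43.6%) lists hold the 37.9% of all genes. Those of the histone (1.73% to 15.2%) and serpin, cytochrome P450 and UGT (2.80% to 11.2%) lists lie below it. For H4K91Q each of these lists has an interval that holds the 1.27% of all genes.

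**Figure D4:**
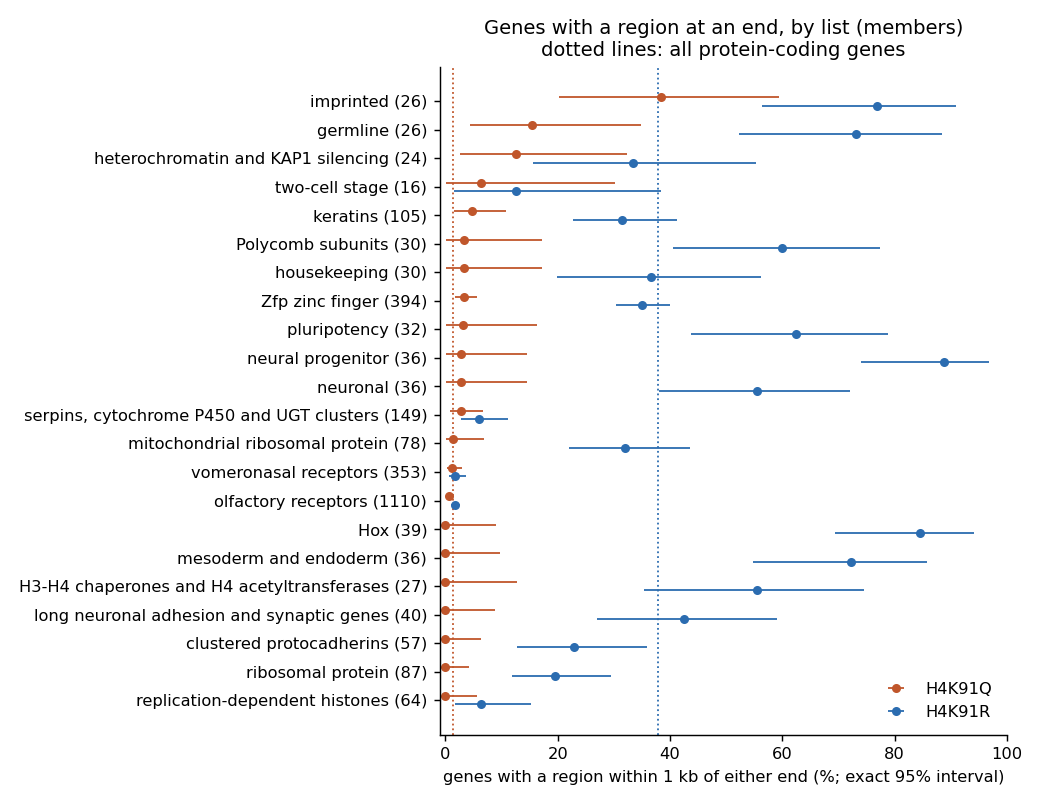
Percent of the members of each gene list (number of members in brackets) with a region within 1 kb of either gene end, for H4K91Q and H4K91R, with exact 95% intervals; dotted lines give all protein-coding genes, 1.27% and 37.9%. The imprinted list has the highest H4K91Q value, 38.5%, and the neural progenitor list the highest H4K91R value, 88.9%.

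The promoter table extends what the printed examples show. Of 21238 tabled promoters of 300 bp, from 250 bp before to 50 bp after a start, 3521 (16.6%) overlapped H4K91R only, 69 (0.325%) both and 5 (0.0235%) H4K91Q only. Some genes have several starts that share sequence, and these values hold for tabled starts alone. Promoters under H4K91R only had a median of 25 CG dinucleotides (quartiles 16 and 33) and a median GC content of 65.7%. Those under both had 17 (10 and 27) and 61.7%, and those under neither had 10 (3 and 22) and 54.3%. The 5 under H4K91Q only, at Krtap28-13, Gm51582, Grb10, Ces2h and Adh5, had between 1 and 9.

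**Figure D5:**
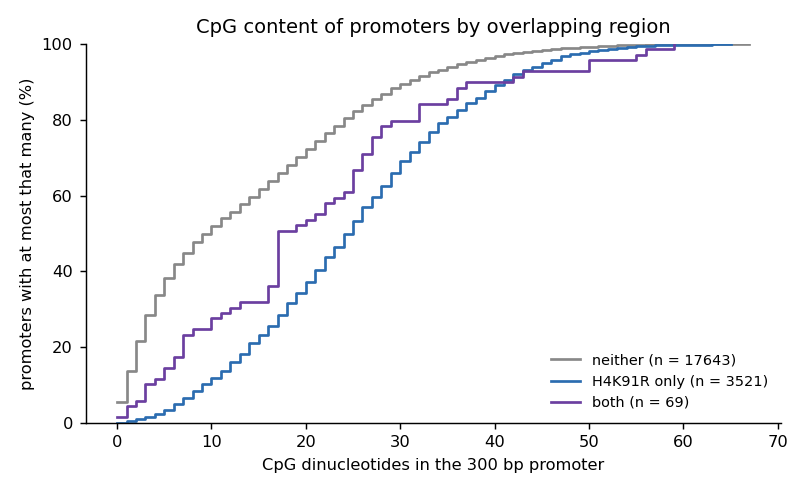
Cumulative percent of promoters (vertical axis) with at most the given number of CG dinucleotides in 300 bp, for promoters under neither mutant, H4K91R only or both. The H4K91R-only curve lies furthest right up to about 40 CG dinucleotides, with a median of 25, beside 17 for both and 10 for neither.

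The 4 short motifs below were searched on both strands in these 300 bp. TGCCGC, the letters bound by the imprint keeper ZFP57 when methylated, was in 14.1% of all promoters, 22.3% of those under H4K91R only, 29.0% (18.7 to 41.2) of those under both and 12.4% of those under neither. GGGCGG, the GC box, was in 46.2% of all, 74.1% under H4K91R only and 47.8% (35.6 to 60.2) under both. CCAAT was in 38.2%, 28.9% and 36.2% of the same classes, and TATAAA in 12.6%, 4.94% and 5.80%. Among the 34 tabled promoters of the imprinted list, 10 were under both mutants, from 9 genes that included Mcts2, Nnat, Plagl1 and Zrsr1, and 10 were under H4K91R only. Of the 10 under both, 7 held TGCCGC. A match is only a match of letters, and TGCCGC itself contains a CG dinucleotide.

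Across the genome the counts of the 2 mutants ran together loosely. In 2673 windows of 1 Mb, H4K91Q had regions in 2176 and H4K91R in 2555. Only 10 windows held H4K91Q without H4K91R, 389 held H4K91R without H4K91Q, and 168 held more H4K91Q than H4K91R. Spearman's rho between the counts was 0.59 over all regions, 0.73 over regions outside genes, 0.46 for H4K91Q against unshared H4K91R and 0.25 for H4K91Q against the number of genes. It was 0.64 for H4K91R against the number of genes. These windows share libraries and mappability, and the values are descriptions.

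The gap widened with gene density. In the quintile of windows with fewest genes there were 1.58 H4K91R regions for each H4K91Q region, then 2.21, 2.41 and 3.07, and 5.80 in the quintile with most genes. The share of H4K91R regions that met H4K91Q fell from 32.4% (30.8 to 34.0) to 10.2% (9.84 to 10.6) over the same order. That of H4K91Q regions that met H4K91R went from 50.6% to 58.3%. The fall depends on the ratio of counts just given, so it describes the lists and adds no separate support. By chromosome the ratio was lowest on chromosomes 13 (2.02) and 3 (2.08) and highest on 19 (5.95), 8 (5.31) and 11 (5.25). Over the 19 autosomes its rho with genes per Mb was 0.74, and 0.55 when only regions outside genes were counted.

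The extreme windows were different ones. Among those with most H4K91Q, 62 to 63 Mb of chromosome 13, around Zfp808, Zfp935 and Fbp1, held 59 H4K91Q and 40 H4K91R regions, and 27 of the 40 met H4K91Q. The window at 7 to 8 Mb of chromosome 1, with Pcmtd1, held 57 and 49. By contrast, 70 to 71 Mb of chromosome 8, with 53 genes such as Jund and Upf1, held 208 H4K91R regions and no H4K91Q region. The window at 120 to 121 Mb of chromosome 8, around Gse1 and Irf8, held 242 and 6, and 80 to 81 Mb of chromosome 10 held 230 and 4. A gene-rich window with many of both was 19 to 20 Mb of chromosome 7, around Apoe, with 194 H4K91R and 45 H4K91Q regions.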

How the data were processed

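HA ChIP-seq peak lists of 3 stem cell libraries were used, H4K91Q, H4K91R and empty vector, 1 library each. The other 33 samples were not analysed here, apart from the number of peaks in the wild-type list. Per the submitters' processing notes, MACS2 and mm10 were used. The aligner, the MACS2 version, the peak threshold and read depth are each not given in the sources used, so no depth can be set beside a value. Each deposited list names its own input, so each library was called singly. Per the narrowPeak format of the deposited files, a peak has a score, a fold enrichment (ratio) over input, −log10 p and −log10 q values and a summit position. The deposited score equalled 10 times −log10 q, rounded down, for every peak checked and was not used further. Folds and −log10 q values are the authors', and were used to describe and rank peaks within a list.

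Regions were compared by overlap of at least 1 bp, and a gene was marked when a region overlapped 1 kb on either side of either end of a protein-coding gene in RefSeq GRCm38.p6. Genes named are the 10 of highest fold marked by both mutants, by H4K91Q alone and by H4K91R alone, up to 3 per class in each of 22 gene lists, and the 5 strongest regions of each kind, with predicted symbols passed over. Other list members, windows and printed promoters were chosen after their values were seen. Of 370 listed symbols, 359 matched, and 10 further lists were taken by symbol pattern. Members and lists were chosen with earlier results of these data known. Alternatives were a −log10 q of at least 5, equal list lengths, other treatments of empty-vector peaks, stricter overlaps, other windows and all annotated genes. Scripts used python 3.11.15, pandas 2.3.3, numpy 2.4.6 and scipy 1.17.1. They were tested on simulated data with 5000 planted regions and returned 100% of the planted overlaps, distances and locations.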

Additional observations from a re-analysis of the deposited data

How the results depend on the processing

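With 1 library per mutant nothing could be left out, and no paired analysis was possible because each group has a single replicate. Keeping the empty-vector overlaps, or dropping regions within 1 kb of an empty-vector peak, moved none of the 8 main shares and counts beyond its interval or by 1.5 times. With H4K91R cut to 14206 regions the overlap was 35.8% of H4K91Q and 33.8% of H4K91R, H4K91R regions outside genes were 43.8%, and H4K91R marked 3072 genes. With −log10 q raised to 5 the overlaps were 49.5% and 20.4%, H4K91R had 21.6% at gene ends and 39.1% outside genes, and marked 5425 genes. Requiring 50% of the region gave overlaps of 41.1% and 13.2%, and requiring the summit inside gave 45.3% and 14.1%. Windows of 500 bp put 1.32% of H4K91Q and 13.6% of H4K91R regions at gene ends, windows of 2 kb 4.10% and 27.4%, and 2 kb marked 445 genes for H4K91Q. With all annotated genes, 65.1% of H4K91Q and 30.4% of H4K91R regions lay outside genes. Wherever the share outside genes was recomputed it was larger for H4K91Q, and wherever the share at gene ends was recomputed it was smaller for H4K91Q.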

Other observations

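Long non-coding RNA genes, pseudogenes and microRNA genes held H4K91R more often than H4K91Q, while tRNA and small nuclear RNA genes had very few regions of either. Of 7323 long non-coding RNA genes more than 1 kb from any protein-coding gene, H4K91Q lay in 382 (5.22%, 4.72 to 5.75) and H4K91R in 1107 (15.1%, 14.3 to 15.96), with 283 in common. Protein-coding genes, counted without flanks in the same way, had 6.87% and 50.3%. Of 7663 pseudogenes away from coding genes 155 (2.02%) and 399 (5.21%) had them, with 122 in common. Small RNA genes, counted here wherever they lay, were rarely covered: H4K91R lay over 90 of 1228 microRNA genes and H4K91Q over 9, all 9 also under H4K91R. Of the 366 microRNA genes more than 1 kb from coding genes the counts were 12 and 1. Of 408 tRNA genes H4K91R covered 6 (0.542% to 3.17%) and H4K91Q 1 (0.00621% to 1.36%), with overlapping intervals. Of the 332 tRNA genes away from coding genes they covered 1 and 0. Of 1004 small nuclear RNA genes H4K91R covered 0 and H4K91Q 2, where a count of 0 allows up to 0.367%. Median lengths were 8709 bp for these long non-coding genes, 17169 bp for protein-coding genes and 928 bp for these pseudogenes. They were 80 bp for all microRNA genes, 72 bp for all tRNA genes and 107 bp for all small nuclear RNA genes. Such counts grow with gene length, and the H4K91R list held 3.37 times as many regions as the H4K91Q list. The part of either in the differences between gene classes was not tested.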
